A study of Ceratina calcarata with 12 samples.

Results

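The genes described here were those most strongly raised in the heads of orphaned small carpenter bees, Ceratina calcarata. The count of each gene model was divided by the total of its library and expressed as counts per 1000000 (CPM). A gene model was a member when its lowest CPM in the 3 no care libraries was at least 0.5 and at least 3 times its highest CPM in the 3 care libraries. Of 20693 gene models, 16278 had a count in any library, 9411 reached the level of 0.5 CPM in every no care library, and 23 (0.111% of those listed) passed both limits. The members were thus selected on the RNA levels themselves. The cuticle gene Ccalc.v2_000573 was left out, which gave 22 members. Because these 6 libraries chose the members, the levels and fold changes of the members are a description. Calls of a fit across all genes are given for them below only beside the share of all genes called, and nothing is read from them.

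The no care group was of orphaned bees, whose mothers were taken away after the brood had been provisioned, and the care group was of bees reared with the mother in the nest. Both groups were wild-collected nests from sumac stems (Rhus typhina) of Durham, NH, reared in the laboratory, and all bees were newly eclosed adult females from different nests. RNA came from whole heads, 3 heads to a library, with 3 libraries in each group. A library is thus a mixture of bees and of tissues, and a lower level can come from fewer cells of a type or from less RNA per cell, which cannot be told apart here.

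Mothers of this species stay with their offspring and groom them, so removal of the mother ends that contact while the food already supplied remains. The insect cuticle is a layer of chitin fibres and structural proteins that is secreted by the epidermis and goes on hardening and darkening around eclosion. Fatty-acyl-CoA reductases make fatty alcohols, which insects use in waxes and pheromones, and steroid hormone receptors are nuclear receptors, the class through which ecdysone acts in moulting. Annotation was available for 8 of the 22 members through the Gene Ontology (GO) lists of the study. The other 14 had no GO term in those lists, and 0 members had a fly gene name. The fly gene names used for the markers below belonged to gene models Ccalc.v2_000214 to Ccalc.v2_000823, whose IDs precede those of all members. The absence of a fly name is thus not read as the lack of a fly counterpart. Each list was limited to genes called by the study in these same libraries, so the direction of a list is no independent evidence. Names of function below are those of GO terms and not of characterised bee proteins.

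The libraries held 28882748, 29545401 and 30811286 counts in no care replicates 1, 2 and 3, and 29736026, 26752341 and 31894020 counts in care replicates 1, 2 and 3. The level of 0.5 CPM stood for 14.4 to 15.4 counts in the no care libraries. Care replicate 2 stood apart from the other care libraries in many of the genes raised in no care, and several results that rest on it are given below also without it. The calls within the GO lists are given only with all libraries. Of the marker lists of head tissues, the 3 eye markers summed to 1541 to 1921 CPM in no care and 3299 to 4545 CPM in care. Of these, 2 of 3 were called lower in no care by the test across all genes described below. The 6 neuron markers summed to 5084 to 5977 CPM in no care and 4073 to 4188 CPM in care, with 0 of 6 called. Most of that sum was the marker cpx, at 3770 to 4414 CPM in no care and 2751 to 2823 CPM in care. Log2 fold changes of no care over care were 0.56 for cpx, 0.45 for Vmat and 0.23 for sei. They were 0.076 for Rab3-GEF, 0.033 for Shab and -0.31 for Liprin-alpha. The neuron sum thus mainly follows cpx, and of the 6 markers only Liprin-alpha had a negative value. Of the muscle, fat body and germline markers, 0 of 7 testable were called and 1 muscle marker had no count in any library. The muscle markers summed to 5004 to 6703 CPM in no care and 6559 to 7329 CPM in care. For fat body the sums were 108 to 154 CPM in no care and 161 to 204 CPM in care. Germline markers summed to 262 to 296 CPM in no care and 284 to 300 CPM in care. The part of tissue make-up in the levels of the members was not tested.

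Together the members took 973, 583 and 649 CPM in no care replicates 1, 2 and 3, against 64.4, 121 and 78.0 CPM in care replicates 1, 2 and 3. The group means were 735 ± 209 CPM in no care and 87.8 ± 29.6 CPM in care (SD, n = 3 each), an 8.37-fold difference. Without the member of highest CPM the ratio was 7.83, and without care replicate 2 it was 10.3. The 4 members of highest CPM held 55.6 to 58.8% of this sum in no care libraries and 52.5 to 63.1% in care libraries. The members were a small share of the transcriptome, 0.0735% of counts in no care and 0.00878% in care. The cuticle gene that was left out had 25097, 27335 and 29019 CPM in no care and 3622, 7778 and 4065 CPM in care, far above the whole sum of the members.

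**Figure D1:**
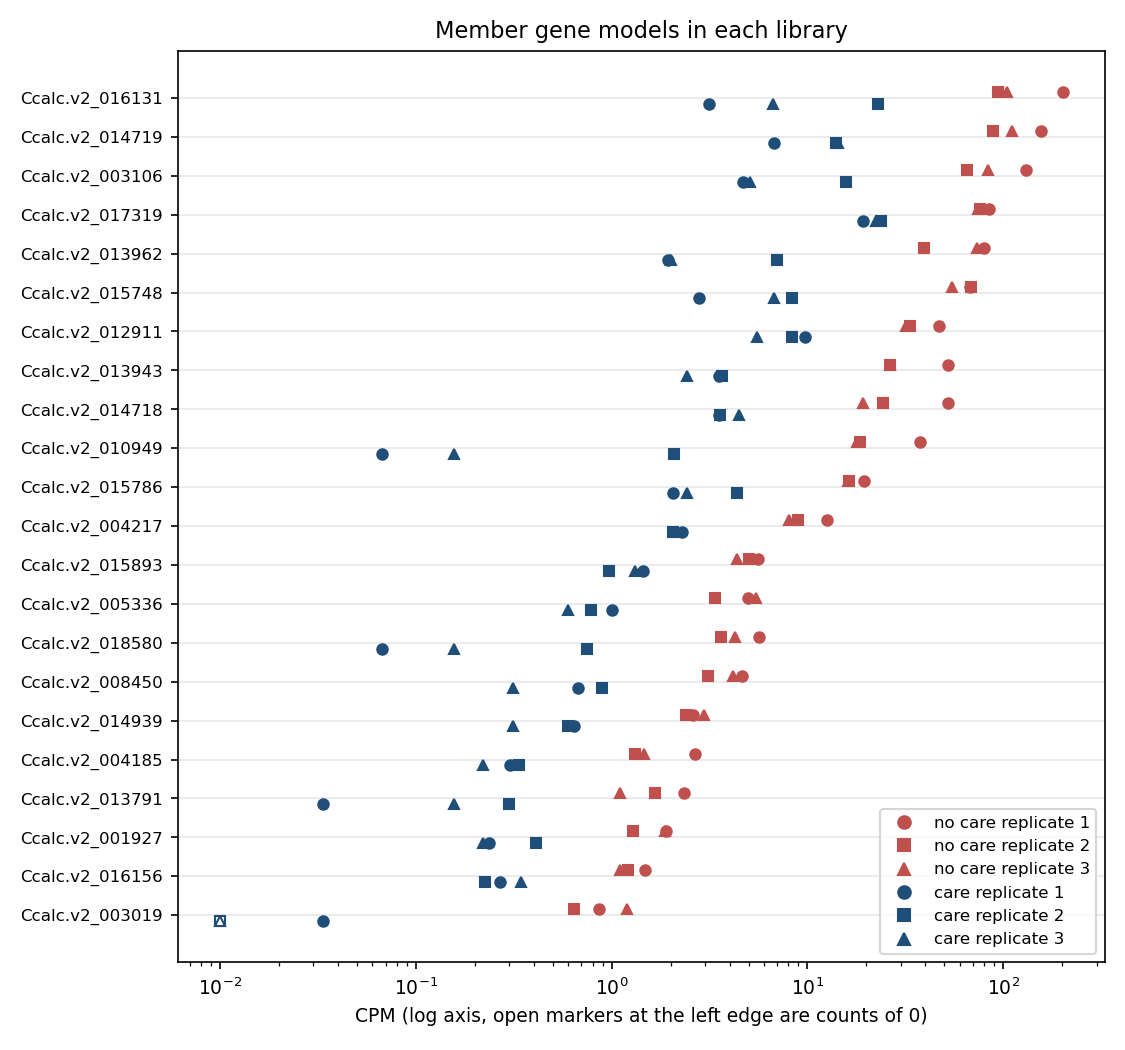
CPM of the 22 members in each of the 6 RNA libraries, on a log axis, with the members in order of mean no care CPM. Red symbols are no care libraries and blue symbols are care libraries, the symbol shape gives the replicate number, and open symbols at the left edge are counts of 0. For each member the red symbols lie to the right of the blue symbols, as the rule demands, and mean no care levels run from 0.90 to 133 CPM.

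Mean levels of the members ranged from 0.90 to 133 CPM in no care, with 11 members at 10 CPM or more and 11 below it. In care they ranged from 0.011 to 21.7 CPM. The ratio of the means ranged from 3.61 to 80.6 with a median of 7.29, and it was at least 10 in 10 members and at least 5 in 17. CPM is not corrected for transcript length, which was not used here, so an order of members by CPM is an order of reads and not of transcripts.

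The gene model with the annotation for fatty-acyl-CoA reductase (alcohol-forming) activity, Ccalc.v2_010949, had 37.5, 18.4 and 17.8 CPM in no care against 0.067, 2.09 and 0.16 CPM in care. These were 1083, 545 and 549 counts in no care and 2, 56 and 5 counts in care. The transcript was thus close to the limit of detection in care replicates 1 and 3 but not in care replicate 2. Its log2 fold change was 5.06 ± 0.87 (SE), the largest among the 21 members that passed the filter on low counts, and the ratio of means was 31.8. Without care replicate 2 the ratio was 219, but the care level then rested on 7 counts in all.

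Most other fatty-acyl-CoA reductases had the opposite direction. The GO list holds 8 gene models, all of which the study had called on these same libraries, so its counts are no independent evidence. By the edgeR quasi-likelihood test 2 were higher in no care, 5 were lower and 1 was not called, with a median log2 fold change of -1.32 against 0.0031 over all 10763 genes tested. The second one that was higher was Ccalc.v2_009837, with 118, 68.1 and 85.2 CPM in no care and 28.9, 43.4 and 33.0 CPM in care, a log2 fold change of 1.39 ± 0.23 (SE). The gene model with the preceding ID number, Ccalc.v2_009836, had the opposite pattern, at 10.8, 25.9 and 23.0 CPM in no care and 134, 115 and 160 CPM in care. The strongest fall was that of Ccalc.v2_008427, at 2.49, 7.41 and 4.58 CPM in no care and 27.0, 33.0 and 48.8 CPM in care, a log2 fold change of -2.87 ± 0.39 (SE).

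The acyl group transferase Ccalc.v2_004217 had 12.6, 8.97 and 8.08 CPM in no care and 2.29, 2.06 and 2.16 CPM in care. Its care libraries differed little, 2.17 ± 0.12 CPM (SD, n = 3), and the ratio of means was 4.56. Enzymes with this term move acyl chains from a donor such as acyl-CoA to an acceptor. Of the 14 gene models with the term, 3 were higher in no care, 9 were lower and 2 were not called, with a median log2 fold change of -0.82. The lowest value in the list was that of Ccalc.v2_003625, with 19.0, 36.6 and 33.9 CPM in no care and 499.8, 381 and 446 CPM in care. This list too holds only genes that the study called on these libraries.

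Ccalc.v2_012911 carried terms for heme binding, iron ion binding and oxidoreductase activity on paired donors, terms that are typical of cytochrome P450 enzymes, although it was not in the list for monooxygenase activity. It had 47.2, 33.4 and 31.7 CPM in no care against 9.69, 8.34 and 5.55 CPM in care, a ratio of means of 4.76. The gene model with the next ID, Ccalc.v2_012912, has the same terms and the monooxygenase term. It was also higher in no care, at 111, 78.4 and 98.8 CPM against 44.5, 46.6 and 38.0 CPM in care, a log2 fold change of 1.19 ± 0.15 (SE). Whether reads that match several gene models were counted is not given in the sources used here, so values of like neighbours are uncertain. Among the 19 gene models listed for monooxygenase activity, 5 were higher in no care and 12 were lower, with a median log2 fold change of -0.96.

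A pair of members had terms for cuticle or chitin, the materials of the body wall. Ccalc.v2_015893, a structural constituent of cuticle, had 5.61, 5.01 and 4.35 CPM in no care and 1.45, 0.97 and 1.32 CPM in care. Its lowest no care value was 3.01 times its highest care value, the smallest ratio of any member. Ccalc.v2_018580, a gene model with the chitin binding term, had 5.68, 3.62 and 4.25 CPM in no care and 0.067, 0.75 and 0.16 CPM in care. Its care counts were 2, 20 and 5, so that its ratio of means of 13.9 rested on few reads, and it was 40.3 without care replicate 2.

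Of the 17 gene models in the cuticle list, 8 were called higher in no care, 0 lower and 9 were not called, with a median log2 fold change of 1.56. The largest change in the list was a fall that was not called, that of Ccalc.v2_006875, with a log2 fold change of -4.50. It had 0.17, 0.37 and 0.42 CPM in no care and 9.82, 0.75 and 12.6 CPM in care. The list was also drawn from genes that the study called on these libraries. Ccalc.v2_004804 had the highest CPM in the list, with 37332, 34441 and 35799 CPM in no care and 2148, 12065 and 4462 CPM in care. It was no member because its highest care value, in care replicate 2, was more than its lowest no care value divided by 3. Together with Ccalc.v2_000573 it took 6.18 to 6.48% of all counts in no care libraries and 0.577 to 1.98% in care libraries. When library sizes were scaled by TMM or by the size factors of DESeq2, which reduce the weight of such genes, 23 gene models passed the limits and these included all 22 members. The added gene model was Ccalc.v2_001421 under both scalings.

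Ccalc.v2_013791, annotated as a steroid hormone receptor, had 2.35, 1.66 and 1.1 CPM in no care against 0.034, 0.30 and 0.16 CPM in care. The counts were 68, 49 and 34 in no care and 1, 8 and 5 in care. By selection the groups did not overlap, and the care level was set by 14 counts in all. The ratio of means was 10.5, and 17.9 without care replicate 2. Of the 8 gene models listed for steroid hormone receptor activity, 2 were higher in no care, 4 were lower and 2 were not called, with a median log2 fold change of 0.083. Ccalc.v2_003155 was the other one that was higher, at 231, 200.3 and 161 CPM in no care and 113, 127 and 121 CPM in care. Ccalc.v2_013746 was lower, at 2.70, 2.40 and 3.28 CPM in no care and 6.56, 9.42 and 7.68 CPM in care.

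Ccalc.v2_008450, a dipeptidyl-peptidase and thus an enzyme that trims dipeptides from the ends of peptides, had 4.60, 3.11 and 4.15 CPM in no care and 0.67, 0.90 and 0.31 CPM in care. Of the other gene models with this term, Ccalc.v2_014494 was higher with a log2 fold change of 0.69 and Ccalc.v2_016712 was lower with a log2 fold change of -0.87. Ccalc.v2_014939, annotated for cytoskeleton organization, had 2.60, 2.40 and 2.95 CPM in no care and 0.64, 0.60 and 0.31 CPM in care. Of 16 tested gene models with that term, 7 were higher, 4 were lower and 5 were not called, and the 6 others that were higher had log2 fold changes of at most 0.93, against 2.40 for the member.

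**Figure D2:**
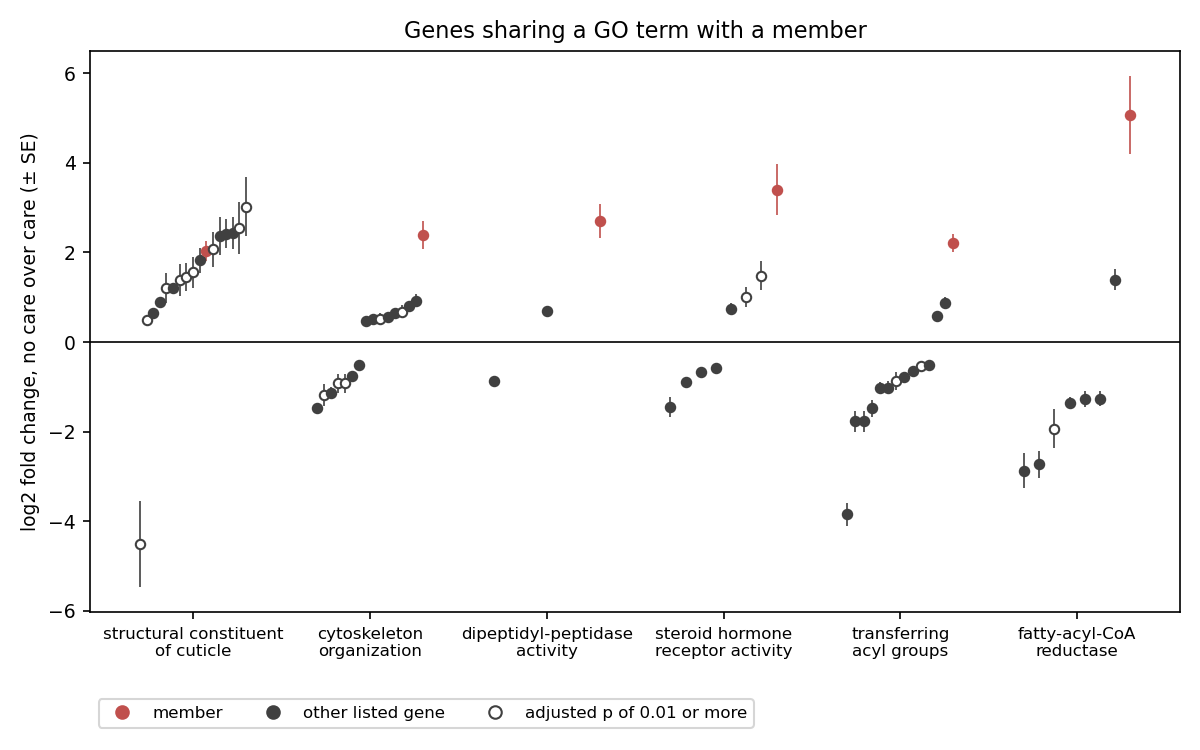
Log2 fold change of no care over care, with its standard error, for each tested gene model in 6 complete GO lists that hold a member, where the lists for steroid hormone receptor activity and steroid hormone signalling, which hold the same genes, are drawn as 1. Red marks the member, grey the other genes, and open symbols are genes with an adjusted p of 0.01 or more. The fatty-acyl-CoA reductase of the members stands at 5.06 while 5 of the 8 in its list were called lower, and in the cuticle list 8 of 17 were called higher and 0 lower.

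Of the 10 members with the highest no care CPM, 8 had no GO term in the lists used here. Ccalc.v2_016131 had 201, 93.8 and 104 CPM in no care and 3.13, 23.0 and 6.68 CPM in care. It varied widely in care, where replicate 2 was 3.44 times the next library. Its mean was 133 ± 59.0 CPM in no care and 10.9 ± 10.6 CPM in care (SD, n = 3 each). By rank of mean CPM it was number 1717 of the listed gene models in no care and number 6585 in care. The ratio of its means was 12.2, and 27.1 without care replicate 2.

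Ccalc.v2_014719 had 155, 88.7 and 110 CPM in no care and 6.76, 14 and 14.4 CPM in care. Ccalc.v2_014718, the gene model with the preceding ID, had 52.1, 24.2 and 19.2 CPM in no care and 3.53, 3.59 and 4.48 CPM in care. They were the only members within 3 ID numbers of each other. The ratios of their means were 10.1 and 8.23 in that order. The ID numbers on either side did not show the same change. Ccalc.v2_014717 was lower in no care, at 106, 75.0 and 99.5 CPM against 201, 160 and 209 CPM in care. Ccalc.v2_014720 had 209, 241 and 284 CPM in no care and 198, 194 and 195 CPM in care and was not called.

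Ccalc.v2_003106 had 131, 65.5 and 84.1 CPM in no care and 4.71, 15.8 and 5.11 CPM in care. Ccalc.v2_013962 had 80.0, 39.4 and 73.6 CPM in no care and 1.95, 6.99 and 2.01 CPM in care. In both, care replicate 2 was more than 3 times the other care libraries. The ratio of means of Ccalc.v2_003106 was 11.0, and 19.1 without care replicate 2. That of Ccalc.v2_013962 was 17.6, and 32.5 without it.

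Ccalc.v2_017319 was the steadiest member, with 84.5, 76.2 and 74.3 CPM in no care against 19.2, 23.7 and 22.3 CPM in care. Its coefficient of variation in no care was 6.96%, the lowest of the members, and its ratio of means of 3.61 was also the lowest. Ccalc.v2_015748 had 67.4, 68.6 and 55.0 CPM in no care and 2.79, 8.30 and 6.77 CPM in care. It was the only member that was highest in no care replicate 2. Ccalc.v2_013943 had 52.1, 26.4 and 26.3 CPM in no care and 3.53, 3.66 and 2.41 CPM in care, with a ratio of means of 10.9. In this member no care replicate 1 was 1.97 times the next library, while the care libraries lay close together.

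The remaining unannotated members were of lower CPM. Ccalc.v2_015786 had 19.4, 16.2 and 16.2 CPM in no care and 2.05, 4.37 and 2.41 CPM in care. Ccalc.v2_005336 had 4.99, 3.38 and 5.49 CPM in no care and 1.01, 0.78 and 0.60 CPM in care. The ratios of their means were 5.85 and 5.80 in that order. Ccalc.v2_004185 had 2.67, 1.32 and 1.46 CPM in no care and 0.30, 0.34 and 0.22 CPM in care. Ccalc.v2_001927 had 1.90, 1.29 and 1.88 CPM in no care and 0.24, 0.41 and 0.22 CPM in care. Ccalc.v2_016156 had 1.49, 1.22 and 1.1 CPM in no care and 0.27, 0.22 and 0.34 CPM in care. For these 3 gene models the values came from no more than 11 counts in any care library.

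Ccalc.v2_003019 was close to absent in care. It had 25, 19 and 37 counts in no care and 1, 0 and 0 counts in care. The ratio of the summed counts, per library total, was 80.2, with a 95% counting interval of 14 to 3207. This exact interval covers counting error only. Ccalc.v2_003019 had too few libraries above 0.18 CPM to pass the filter on low counts. The gene model with the next ID, Ccalc.v2_003020, annotated for lipase activity, was abundant in both groups, at 80.7, 105 and 95.3 CPM in no care and 49.3, 62.3 and 49.7 CPM in care. This neighbour was also called higher in no care by the edgeR quasi-likelihood test, with a log2 fold change of 0.84 ± 0.15 (SE).

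The neighbours of the members by ID number were examined because IDs follow the order along scaffolds where positions are known, although the positions of the members are not. Of 84 gene models within 2 ID numbers of a member that were not members, 45 were tested, 6 were called higher in no care and 1 was called lower by the edgeR quasi-likelihood test. Over all 10763 genes tested, 3.72% were called higher and 3.3% lower. The median log2 fold change of the 45 was 0.36, against 0.0031 over all genes. Those called higher included Ccalc.v2_001928, next to Ccalc.v2_001927, with 28.3, 17.4 and 18.6 CPM in no care and 4.51, 6.95 and 3.54 CPM in care. Ccalc.v2_014940 and Ccalc.v2_014941, the 2 IDs after the cytoskeleton gene model Ccalc.v2_014939, were also higher, with log2 fold changes of 1.5 and 2.52. Ccalc.v2_014941 had 32.2, 17.2 and 18.8 CPM in no care and 2.49, 6.73 and 2.88 CPM in care. Overlapping or near-identical neighbours could share reads, which was not tested.

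The contrast of no care and care was also fitted across all genes with the edgeR quasi-likelihood test and Benjamini-Hochberg adjustment. Genes above 0.18 CPM in more than 3 libraries were tested. Of 10763 genes, 3.72% were called higher in no care and 3.3% lower at an adjusted p of 0.01. Of the members, 21 were tested and 20 were called higher. The members were selected on these same libraries, so nothing is read from that count. The member not called was Ccalc.v2_016131, whose care libraries had the wide spread given above. By the edgeR exact test all 21 were called, where 7.25% of genes were called higher, and by DESeq2 likewise all 21, where 8.91% were. The median log2 fold change of the 21 was 2.70, with a range of 1.88 to 5.06, against 0.0031 over all genes. By selection no member overlapped between the groups, while 16.2% of tested genes were higher in no care without overlap. The number of members called fell to 8 of 21 tested without care replicate 3. There 61 genes in all were called higher in place of 400. It was 12 of 21 without care replicate 1 and 13 of 18 without no care replicate 1. Without care replicate 2 it was 16 of 18, with 339 genes in all called higher. In the settings with 18 tested, fewer members passed the filter on low counts.

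**Figure D3:**
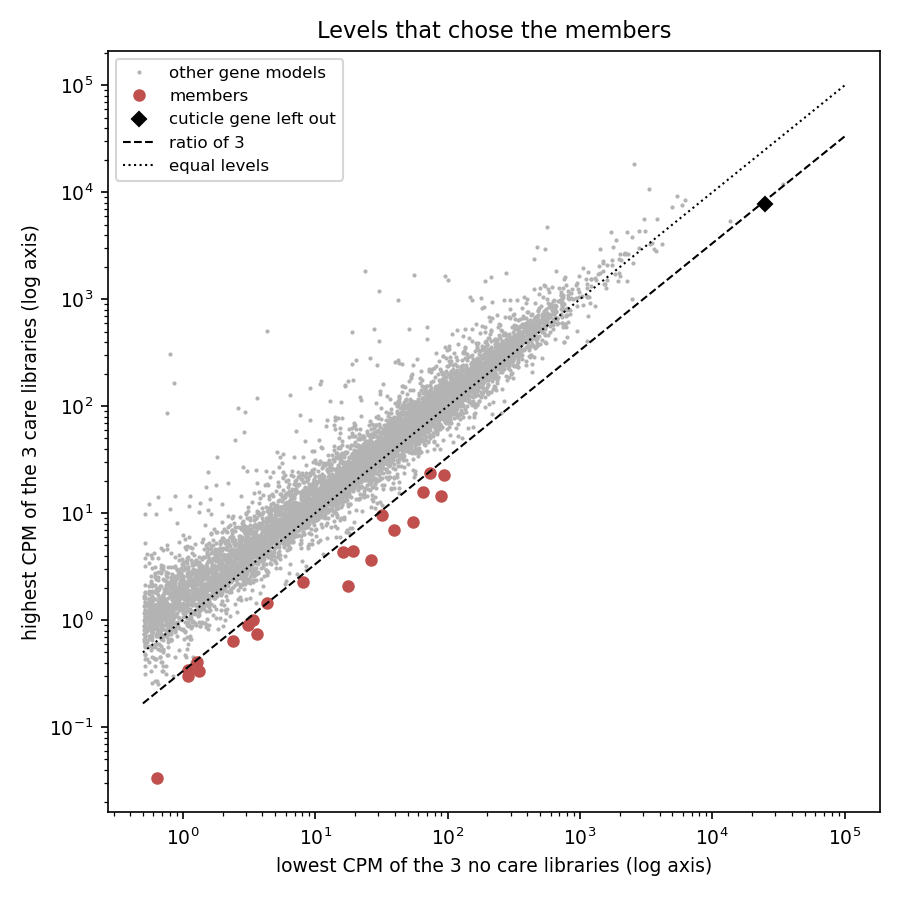
Lowest CPM of the 3 no care libraries against highest CPM of the 3 care libraries, on log axes, for the 9411 gene models with at least 0.5 CPM in every no care library. Points below the dashed line have a ratio of at least 3, the dotted line marks equal levels, red points are the 22 members and the black diamond is the cuticle gene that was left out. Several members lie just under the dashed line, with the smallest ratio at 3.01.

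The ratio limit cut through a continuous range of values. Just inside it were Ccalc.v2_015893 with a ratio of 3.01, Ccalc.v2_001927 with 3.13 and Ccalc.v2_017319 with 3.14. Just outside it were Ccalc.v2_001421 with 2.95, Ccalc.v2_005479 with 2.91 and Ccalc.v2_008467 with 2.86. Ccalc.v2_001421 had 255, 263 and 289 CPM in no care and 86.4, 76.4 and 61.4 CPM in care, a higher level than any member. Ccalc.v2_005479 had 29.0, 8.60 and 15.7 CPM in no care and 2.05, 2.95 and 1.69 CPM in care. A further 58 gene models met the ratio but had less than 0.5 CPM in a no care library. With the same limits in the other direction, 67 gene models were higher in care, about 3 times the number of members.

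The members shared a pattern within the groups that the rule did not use directly. In no care, 18 of the 22 were highest in replicate 1, 1 in replicate 2 and 3 in replicate 3, and none was lowest in replicate 1. Among all genes tested, 36.5% were highest in no care replicate 1. In care, 13 members were highest in replicate 2, 6 in replicate 1 and 3 in replicate 3, whereas 25.5% of genes tested were highest in care replicate 2. The same libraries led among the 380 other genes called higher in no care, of which 58.7% were highest in no care replicate 1 and 63.7% in care replicate 2. These counts are a description, since the limits act on the lowest no care and highest care library and the members share the same 6 libraries.

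In 5 members (Ccalc.v2_010949, Ccalc.v2_013962, Ccalc.v2_016131, Ccalc.v2_003106 and Ccalc.v2_018580) care replicate 2 was at least 2 times each other care library, a spread seen in 1.1% of tested genes and 1.84% of the other genes called higher. In 6 members no care replicate 1 was at least 1.5 times each other no care library, against 3.65% of tested genes and 3.16% of the other genes called higher. The widest was Ccalc.v2_014718, where it was 2.15 times the next library. The limits of 2 and 1.5 were chosen after the values were seen. The other genes called higher had passed a test that weighs against spread within a group, so their shares are not a like comparison. The coefficient of variation in no care ranged from 6.96 to 55.6% among the members, with a median of 24.0%.

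**Figure D4:**
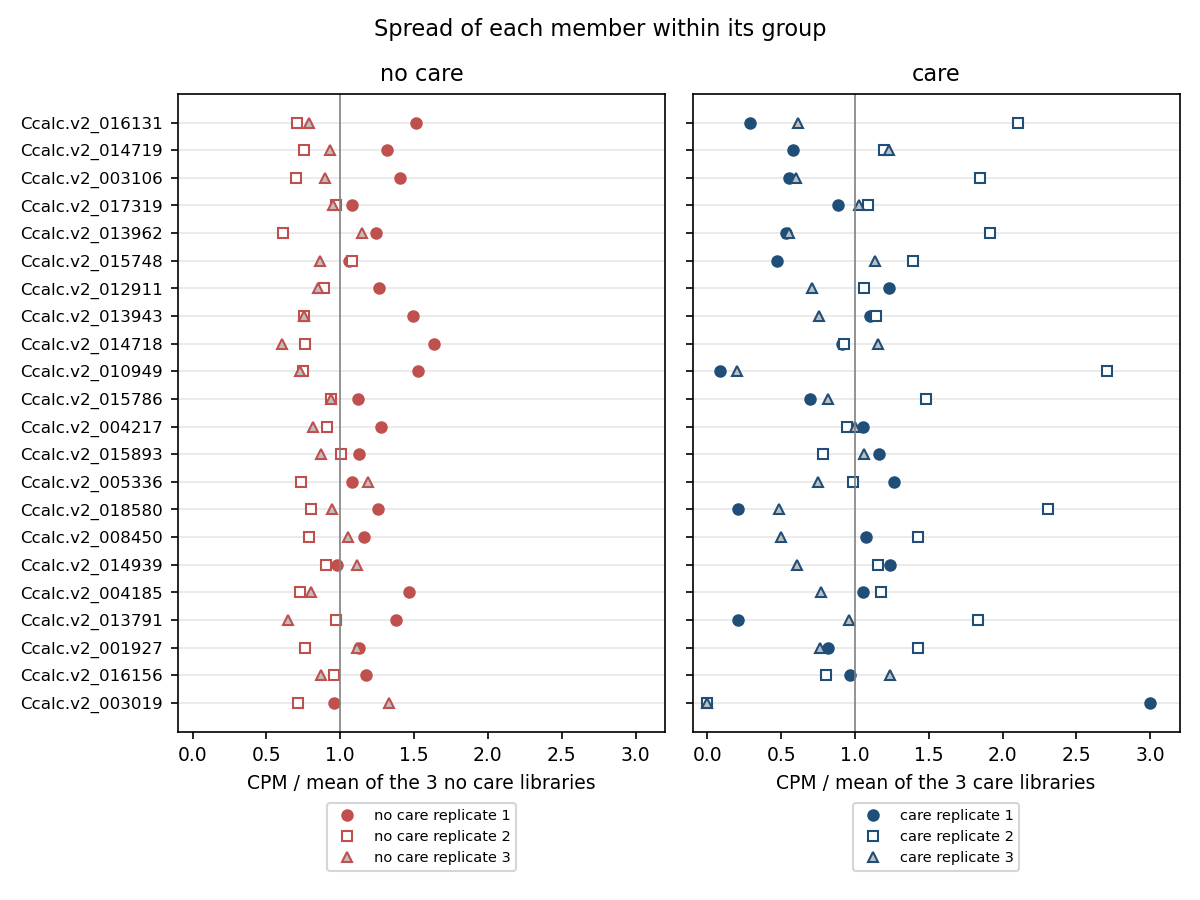
CPM of each member divided by the mean of its own group, for the 3 no care libraries at left and the 3 care libraries at right, with the members in order of mean no care CPM. A value of 1 is the group mean. No care replicate 1 is highest in 18 members, and care replicate 2 is highest in 13 and stands far to the right in several, while for Ccalc.v2_003019 the only care count was in replicate 1.

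Among the libraries left out in turn, care replicate 2 changed the number of gene models past the limits most. Without it 82 gene models passed, of which 22 were the members and 60 were added. Without each of the other libraries 25 to 38 passed. The 22 members pass in each case by construction, since leaving out a library can only widen the gap between the groups. The gene models higher in care by the mirrored limits numbered 67 with all libraries, 72 to 84 with a library other than care replicate 2 left out and 91 without care replicate 2. By construction the 60 added gene models were highest in replicate 2 among the care libraries, and in 40 of them it was at least 2 times each other care library. Of the 60, 25 were called higher in no care by the quasi-likelihood test with all libraries, where 3.72% of all genes tested were. The 60 were chosen on these same libraries, so nothing is read from that count.

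The 60 gene models included 4 structural constituents of cuticle, Ccalc.v2_004804, Ccalc.v2_005769, Ccalc.v2_009923 and Ccalc.v2_015863. Ccalc.v2_009923 had 1538, 1136 and 1390 CPM in no care and 189, 410 and 167 CPM in care. Ccalc.v2_005769 had 18.6, 11.5 and 14.3 CPM in no care and 0.64, 4.19 and 0.78 CPM in care. The carboxypeptidases Ccalc.v2_010407 and Ccalc.v2_011524 were also among them. Ccalc.v2_010407 had 121, 105 and 93.2 CPM in no care and 22.7, 48.2 and 20.9 CPM in care. The fatty acid biosynthesis gene model Ccalc.v2_002279 had 25.5, 16.4 and 10.9 CPM in no care and 1.95, 5.61 and 0.78 CPM in care, and the collagen gene model Ccalc.v2_001615 had 119, 43.2 and 43.5 CPM in no care and 9.48, 15.4 and 12.2 CPM in care.

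**Figure D5:**
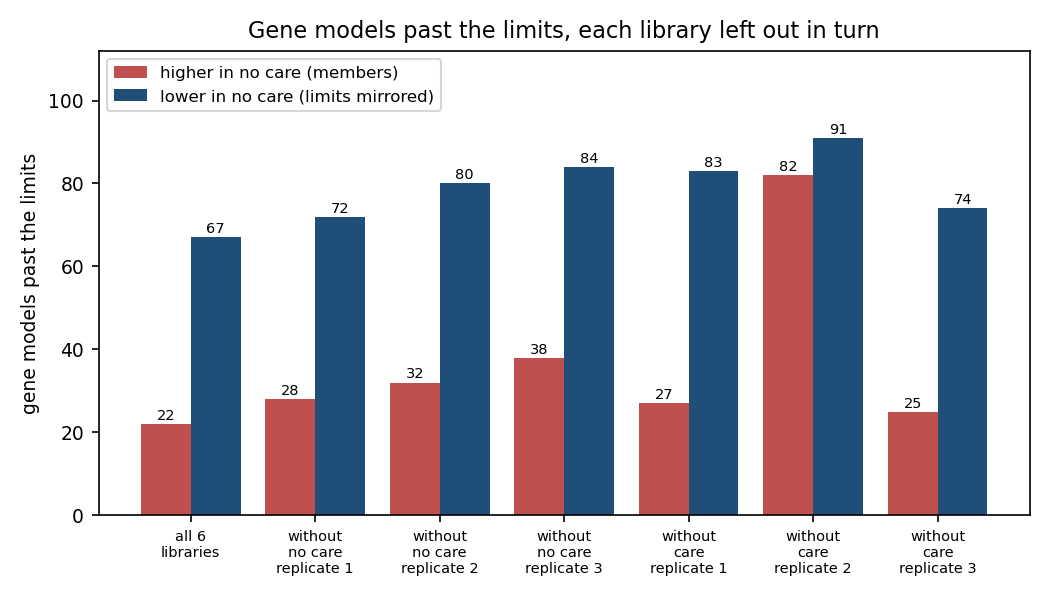
Number of gene models past the limits with all 6 libraries and after each library in turn was removed. Red bars are gene models higher in no care, without the cuticle gene that was left out, and blue bars are gene models lower in no care by the mirrored limits. Without care replicate 2 the red bar rises to 82 and the blue bar to 91, against 22 and 67 with all libraries.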

How the data were processed

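RNA was sequenced from 6 libraries of 3 pooled heads. The authors used Trimmomatic 0.32 on the paired reads, TopHat for alignment to assembly v1.1, and deposited raw counts per gene model from featureCounts, without normalization. Strand and multiple-match settings are not given in the sources used here. From these counts, CPM per library total chose the members. The members and lists were chosen with earlier results of these data known. All genes above 0.18 CPM in more than 3 libraries were fitted in R 4.3.3 with edgeR 4.0.16 (quasi-likelihood test, TMM, Benjamini-Hochberg adjustment, threshold of 0.01), with edgeR's exact test, DESeq2 1.42.0, other scalings and filters, a replicate block and each library left out as alternatives. Each SE of a log2 fold change was derived from the quasi-likelihood test, as the absolute log2 fold change divided by the square root of its F statistic. The fit was checked on simulated counts with the same dispersion for every gene. There the quasi-likelihood test recovered 166 of 200 changed genes, with 1 false call. No simulated library stood apart as care replicate 2 did, so the check does not cover that spread. Within groups, chi-square divided by its degrees of freedom was 36.8 to 79.0 between libraries, beyond sampling noise. The libraries thus differed by more than counting error, but this value cannot tell differences between bees from differences in preparation. That each library was a pool of bees from different nests is stated by the study.

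Genes named were members with an annotation, the 10 with the highest no care CPM, the 10 with the largest ratio (a care level of 0 taken as 3 counts), those at the ratio limit and those within 3 ID numbers of each other. Other genes named were chosen after their values were seen. Likeness of members was given as which library was highest, since 3 libraries are too few for a correlation. Bisulfite libraries were not used, since positions of the members were not known here. IDs of the reference gene table had 0 matches to the gene models, so no sequences were given. Figures were drawn with matplotlib 3.10.9 under Python 3.11.15.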

Additional observations from a re-analysis of the deposited data

How the results depend on the processing

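The median log2 fold change of the members tested stayed within 2.51 to 2.97. It did not cover the same members throughout. Without care replicate 2 or a no care replicate, 18 members passed the filter on low counts rather than 21, and 22 passed with a looser filter or none. Ccalc.v2_010949, the tested member of largest log2 fold change, and Ccalc.v2_013791 were not tested in the settings with 18. The ratio of the summed CPM of the members stayed within 7.01 to 10.3. No sign could turn under a left-out library, since the members were chosen to be higher in every no care library. The number of gene models past the limits was 95 at a ratio of 2, 10 at a ratio of 4, 6 at a ratio of 5 and 80 with no CPM floor, against 22, and for the mirrored limits 149, 43, 27 and 160, against 67. Leaving out each library in turn gave 25 to 82 (38 without no care replicate 3). The members called, 20 of 21 in the main test, ranged from 8 of 21 to 17 of 18 with a library left out. The genes called higher, 400 in the main test, ranged from 61 to 641. By the exact test 780 genes were called higher, by DESeq2 903 and at an adjusted p of 0.05 966. Whether same-numbered libraries were processed together is not given in the sources used here. Deviations of same-numbered libraries from their group means correlated at -0.0017, -0.048 and 0.10 for replicates 1, 2 and 3. Those of other pairs ranged from -0.094 to 0.13. Replicate 3 correlated best with its own number in both groups, and replicates 1 and 2 did not. With so few libraries in a group these values cannot settle whether the numbers pair the libraries. With the replicate block 10 members and 182 genes were called higher. The cause of these moves was not tested. Methylation alternatives were not run because positions of the members were not known. Members below about 0.4 CPM in care rest on few counts, and their ratios are loosely bounded.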
